A study of Mus musculus with 11 samples.

Results

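A set of 8 complement genes was followed across airway libraries of 3 groups of mice. They encode C1ra, C4b and C2 of the classical and lectin routes, Cfb of the alternative route, the central component C3, the regulator Cfi, and C3ar1 and C5ar1, the receptors of the anaphylatoxins C3a and C5a. The members were the rows whose mouse Ensembl identifier carries one of these symbols, and all 8 were found among the 21899 genes listed. C4b was lower, and C3ar1 and Cfi were higher, in the airway of mice challenged with ovalbumin and LPS (OVA/LPS/Vehicle) than in PBS airway, while C3, the most abundant of the 8, varied more between libraries than between groups. The 3 calls, out of 6 members tested, stood beside 38% of all genes called. They were lost after a correction for GC content and without the library PBS 3. Leaving out the 3 OVA/LPS/Vehicle libraries that hold thyroid markers left 1 library in that group. The log2 differences from PBS were then -0.35 for C4b, 1.28 for C3ar1 and 0.53 for Cfi, against -0.85, 0.81 and 0.43 with all libraries. No member passed the test once the γ-glutamyl transferase inhibitor GGsTop was added (OVA/LPS/GGsTop), where C4b came nearest.

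The mice were male wild-type BALB/c, 6 to 8 weeks old. The OVA/LPS/Vehicle group (4 libraries) was sensitized with ovalbumin (OVA) in alum on days 0 and 7, given OVA intranasally on days 14 to 17 and lipopolysaccharide (LPS) on days 19 and 21, and then vehicle into the trachea. The OVA/LPS/GGsTop group (4 libraries) differed in receiving GGsTop into the trachea on days 21, 22 and 23, and tissue was taken on day 25. The PBS group (3 libraries) was neither sensitized nor challenged and received PBS only, so that it differs from the others in OVA, alum and LPS together. No dose into the trachea is described for it, so that it may differ in this as well. The OVA/LPS/Vehicle libraries carry the labels 12, 34, 56 and 78, and the sources do not say whether each is a pool of mice. The labels name the tissue as trachea, whereas the methods describe dissected airway with the trachea removed. Nothing in the labels says that libraries came from separate mice, and p-values measure the spread between these libraries.

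Complement is a cascade of plasma proteins made mainly by the liver, with local synthesis by epithelium, fibroblasts and macrophages. Its routes meet at C3, whose cleavage gives C3a and the opsonin C3b, and later steps cleave C5 into C5a and start the membrane attack complex. C3a and C5a act through C3ar1 and C5ar1 on myeloid and other cells, and both receptors have been studied in asthma for their part in sensitization and airway hyperresponsiveness.

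The values are FPKM, fragments scaled by exon length and library total, and the recovered totals lay between 14513136 and 18632382 fragments. Airway epithelium was well represented, with summed FPKM of 8 of its markers, Scgb1a1 the highest, at 27824 to 51342. The alveolar markers summed to 4612 to 16283, and hepatocyte markers to 4.23 to 39.8. Of 92 tested markers of 17 cell and tissue types, 8 were higher and 15 lower in OVA/LPS/Vehicle than in PBS, 2 were higher and 2 lower in OVA/LPS/GGsTop than in OVA/LPS/Vehicle, and 3 were higher in OVA/LPS/GGsTop than in PBS. The libraries differed in the dependence of FPKM on the GC content of genes. The slope per 10 points of GC was -0.26 to -0.19 on the log2 scale in OVA/LPS/Vehicle, 0.05 to 0.11 in OVA/LPS/GGsTop, and 0.06, 0.05 and 0.53 in PBS 1, 2 and 3. PBS 3 thus stood apart, and so did its mitochondrial share of 2.08% of FPKM against 6.39% to 19.5% in the others. Since GC slope and group move together, differences are also given after a GC correction. The sum of 4 thyroid markers, Tg the highest, was 92.4, 175 and 314 FPKM in OVA/LPS/Vehicle 12, 34 and 56, but 0.788 FPKM in OVA/LPS/Vehicle 78 and 0.538 to 1.68 FPKM in the PBS and GGsTop libraries. Without those 3 libraries, OVA/LPS/Vehicle is 1 library, assumed to vary like the other groups, and limma then called 1 gene lower and 3 higher than in PBS, and 0 between it and the GGsTop group (197 lower and 657 higher with GGsTop at an unadjusted p under 0.05). Across the 14004 genes whose mean reached 0.5 FPKM, limma called 3096 lower and 2231 higher in OVA/LPS/Vehicle than in PBS, and 254 lower and 966 higher in OVA/LPS/GGsTop than in OVA/LPS/Vehicle. Rescaling to equal FPKM totals moved the median of all genes in the first comparison from -0.01 to -0.15 and gave 4570 lower and 1232 higher. In the second comparison it gave 155 lower and 2026 higher, and equal medians gave 354 and 344.

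Promoters were taken from RefSeq, where 4 of the 8 members (C3, C1ra, C3ar1 and C5ar1) had an entry. The 250 bases before the start site are shown for C3, which carries the motif searched, and for the receptors of its product and of C5a, whose levels are given further on. The letters TTGCNNAA (C/EBP), where N is any base, were searched on both strands. In 32851 promoters of the same length, 9.56% hold them. Capitals mark the C/EBP letters, which start 45 bases before the start site of C3. They lie on the minus strand of GRCm38.p6, at chr17:57228137-57228386 for C3, chr6:122856158-122856407 for C3ar1 and chr7:16259339-16259588 for C5ar1.
C3: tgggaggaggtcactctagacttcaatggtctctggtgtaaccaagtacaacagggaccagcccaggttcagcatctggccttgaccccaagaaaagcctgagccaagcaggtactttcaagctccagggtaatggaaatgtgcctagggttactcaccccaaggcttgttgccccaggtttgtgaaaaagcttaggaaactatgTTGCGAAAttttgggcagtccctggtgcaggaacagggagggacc
C3ar1: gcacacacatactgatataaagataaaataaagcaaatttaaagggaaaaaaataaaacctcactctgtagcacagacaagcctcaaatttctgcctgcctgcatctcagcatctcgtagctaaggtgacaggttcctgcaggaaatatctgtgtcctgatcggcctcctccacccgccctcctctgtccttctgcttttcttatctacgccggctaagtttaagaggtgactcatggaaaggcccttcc
C5ar1: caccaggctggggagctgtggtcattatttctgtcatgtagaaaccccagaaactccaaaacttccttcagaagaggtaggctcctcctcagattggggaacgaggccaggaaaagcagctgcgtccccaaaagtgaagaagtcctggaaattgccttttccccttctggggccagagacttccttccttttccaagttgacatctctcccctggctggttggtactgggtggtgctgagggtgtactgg
The motif was not in the windows of C3ar1, C5ar1 and C1ra. A match of letters is a description of the sequence and no evidence that a factor binds there.

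Averaged over the 11 libraries, C3 stood at 172 FPKM, rank 158 among the 14004 genes tested by level. C4b followed at 37.4 FPKM and C1ra at 21.1 FPKM, then C5ar1 at 4.68 FPKM and C3ar1 at 2.30 FPKM. Cfi at 0.638 FPKM was just above the filter of 0.5 FPKM, and C2 at 0.430 FPKM and Cfb at 0.0587 FPKM fell under it. Hence 6 of the 8 members entered the fit. The levels of the members over libraries, with their means and SD, are plotted by group.

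**Figure D1:**
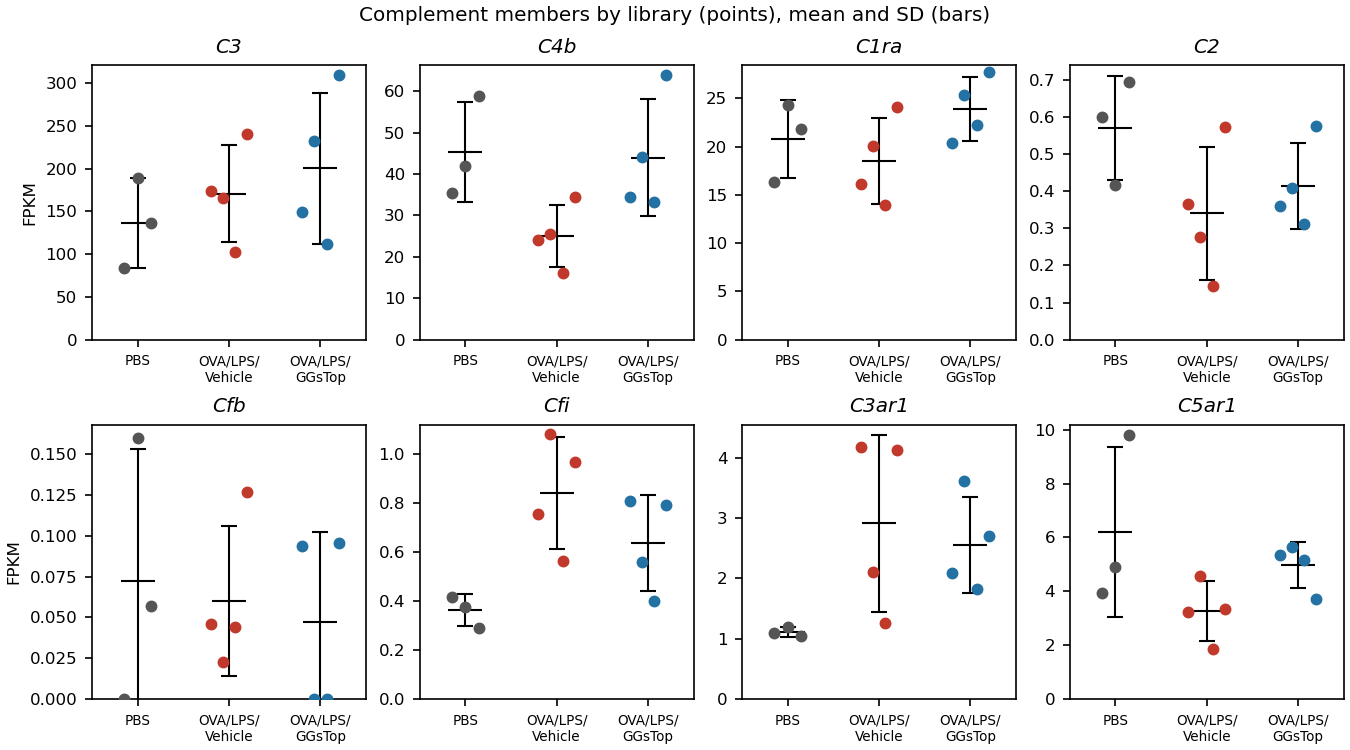
FPKM (y axis, from 0) of each of the 8 complement genes in every library (points, 3 PBS, 4 OVA/LPS/Vehicle, 4 OVA/LPS/GGsTop), with the group mean and SD (bars, drawn down to 0 at most). C4b, Cfi and C3ar1 do not overlap between PBS and OVA/LPS/Vehicle, while C3 spreads from 83.7 to 309 FPKM with all groups overlapping.

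C4b (ENSMUSG00000073418, GRCm38 chr17:34728380-34743882, minus strand) encodes mouse C4, the substrate of the C1 and MASP proteases whose fragment C4b anchors the classical C3 convertase. Its level was 35.3, 41.9 and 58.8 FPKM in PBS 1, 2 and 3. It was 23.96, 25.6, 16.1 and 34.5 FPKM in OVA/LPS/Vehicle 12, 34, 56 and 78, and 34.4, 44.2, 33.2 and 63.8 FPKM in OVA/LPS/GGsTop 1 to 4. All OVA/LPS/Vehicle libraries lay below all PBS libraries, though the highest, 78, was close to the lowest PBS library and above 2 of the GGsTop libraries. The group means were 45.3 ± 12.1 FPKM (SD, n = 3), 25.04 ± 7.56 FPKM (SD, n = 4) and 43.9 ± 14.2 FPKM (SD, n = 4). C4b was lower in OVA/LPS/Vehicle than in PBS by a log2 difference of -0.85 (SE 0.28, limma adjusted p = 0.033). After the GC correction the difference was -0.56 (adjusted p = 0.128), and without PBS 3 it was -0.65 (adjusted p = 0.147). It was also past the threshold no longer without OVA/LPS/Vehicle 12, 34 or 56 (adjusted p = 0.059, 0.057 and 0.083). OVA/LPS/Vehicle 78, the highest of its group in C4b, was the 1 without thyroid markers, and 56, the lowest, had the highest thyroid sum. With 78 alone in its group the log2 difference from PBS was -0.35 (limma adjusted p = 0.597), and that of OVA/LPS/GGsTop from it was 0.29 (adjusted p = 0.863). The smooth muscle marker sums were 519, 702 and 571 FPKM in PBS, 439, 475, 441 and 445 FPKM in OVA/LPS/Vehicle and 552, 570, 417 and 1038 FPKM in OVA/LPS/GGsTop, so that OVA/LPS/Vehicle lay below PBS here too and OVA/LPS/GGsTop 4 was highest in both. The part of thyroid and smooth muscle tissue in the C4b values was not tested. The log2 difference of OVA/LPS/GGsTop from OVA/LPS/Vehicle was 0.78 (SE 0.26, interval 0.23 to 1.34, unadjusted p = 0.010, adjusted p = 0.072), and it passed the threshold when libraries were rescaled to equal FPKM totals (adjusted p = 0.036) or without PBS 3 (adjusted p = 0.044). With GC corrected this difference was 0.59 (adjusted p = 0.170). OVA/LPS/GGsTop and PBS differed by -0.06 (interval -0.67 to 0.54). A share of 16.5% of the 100-base windows of C4b is also found in its near copy C4a. No listed gene carried the symbol C4a, so its level is not known here, and how reads of the pair were assigned is not stated.

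C1ra (ENSMUSG00000055172, GRCm38 chr6:124512405-124523443, plus strand) encodes a C1r protease, which activates C1s in the C1 complex. It varied 1.48-, 1.73- and 1.36-fold within the groups. Its level was 16.4, 24.3 and 21.8 FPKM in PBS, 16.1, 20.1, 13.95 and 24.1 FPKM in OVA/LPS/Vehicle, and 20.3, 25.4, 22.2 and 27.7 FPKM in OVA/LPS/GGsTop. The groups overlapped in every comparison. The log2 difference was -0.17 (interval -0.58 to 0.24) between OVA/LPS/Vehicle and PBS and 0.37 (interval -0.01 to 0.75, adjusted p = 0.175) between OVA/LPS/GGsTop and OVA/LPS/Vehicle. With GC corrected they were -0.10 (adjusted p = 0.702) and 0.32 (adjusted p = 0.278). Of its windows, 34.5% are shared with the neighbouring copy C1rb. C1rb was listed at 1.27 ± 0.279 FPKM (SD, n = 3) in PBS, 2.24 ± 0.616 FPKM (SD, n = 4) in OVA/LPS/Vehicle and 2.47 ± 0.527 FPKM (SD, n = 4) in OVA/LPS/GGsTop. It was higher in OVA/LPS/Vehicle than in PBS (log2 difference 0.50, adjusted p = 0.037; 0.62 and 0.023 after the GC correction).

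C2 (ENSMUSG00000024371, GRCm38 chr17:34862604-34898265) and Cfb (ENSMUSG00000090231, GRCm38 chr17:34856374-34862518) lie side by side on the minus strand in the MHC class III region and encode the protease subunits of the classical and alternative C3 convertases. C2 was listed at 0.600, 0.416 and 0.693 FPKM in PBS, at 0.367, 0.278, 0.146 and 0.572 FPKM in OVA/LPS/Vehicle and at 0.360, 0.409, 0.311 and 0.576 FPKM in OVA/LPS/GGsTop, from 9 to 50 fragments a library. The groups overlapped, and the mean in OVA/LPS/Vehicle was 0.597 times that in PBS (exact two-sided permutation p = 0.114, where 0.0286 is the smallest these groups allow). Cfb gave 29 fragments over all 11 libraries and was listed at 0 in 3 of them, and 3 fragments correspond to 0.0570 to 0.0732 FPKM, so that no difference between groups was detectable at this depth. These low values have an annotation beside them. In GENCODE M21, 79.5% of the exon bases of Cfb and 46.9% of those of C2 are shared with other genes, chiefly the read-through gene Gm20547, which was listed at 0 in every library. Fragments in shared bases can be left out of counting, and how the authors counted them is not stated. If only the unshared bases had been counted, the mean levels would be 0.810 FPKM for C2 and 0.287 FPKM for Cfb.

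C3 (ENSMUSG00000024164, GRCm38 chr17:57203970-57228136, minus strand) was the most abundant member in every library. Its level was 83.7, 188 and 137 FPKM in PBS. It was 173, 166, 103 and 241 FPKM in OVA/LPS/Vehicle and 149, 232, 112 and 309 FPKM in OVA/LPS/GGsTop. Each group held a low and a high library, PBS 1 and 2, OVA/LPS/Vehicle 56 and 78, and OVA/LPS/GGsTop 3 and 4, which differed 2.25-fold, 2.35-fold and 2.77-fold. The group means of 136 ± 52.4 FPKM (SD, n = 3), 171 ± 56.5 FPKM (SD, n = 4) and 201 ± 88.3 FPKM (SD, n = 4) differed by less than this spread. The log2 difference was 0.33 (interval -0.51 to 1.17, limma adjusted p = 0.501) between OVA/LPS/Vehicle and PBS, 0.19 (interval -0.59 to 0.97, adjusted p = 0.748) between OVA/LPS/GGsTop and OVA/LPS/Vehicle, and 0.52 (interval -0.32 to 1.36, adjusted p = 0.457) between OVA/LPS/GGsTop and PBS. Each interval included 0 and reached at least 0.97. With GC corrected the 3 differences were 0.52, 0.066 and 0.59 (adjusted p = 0.331, 0.937 and 0.396). With array weights the difference between OVA/LPS/Vehicle and PBS was 0.95 (limma adjusted p = 0.021), a call that the main fit did not make. The summed fibroblast markers, with Dpt as the highest, stood at 322, 511 and 364 FPKM in PBS, at 350, 399, 288 and 468 FPKM in OVA/LPS/Vehicle and at 304, 411, 355 and 556 FPKM in OVA/LPS/GGsTop. The library highest in C3 within each group was thus also the highest in this sum, and their part in the result was not tested.

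Cfi (ENSMUSG00000058952, GRCm38 chr3:129835884-129875332, plus strand) encodes factor I, the plasma protease that cuts C3b and C4b and so stops the cascade. It was listed at 0.419, 0.378 and 0.290 FPKM in PBS. It was listed at 0.755, 1.08, 0.565 and 0.970 FPKM in OVA/LPS/Vehicle and at 0.808, 0.559, 0.400 and 0.791 FPKM in OVA/LPS/GGsTop. All OVA/LPS/Vehicle libraries lay above all PBS libraries, and the lowest OVA/LPS/GGsTop library lay among the PBS libraries. The mean in OVA/LPS/Vehicle was 2.33 times that in PBS. On the log2(FPKM + 1) scale, which compresses such low values, the difference was 0.43 (SE 0.14, limma adjusted p = 0.031), and with a pseudocount of 0.1 it was 1.01. The values rest on 12 to 38 fragments a library. After the GC correction the difference was 0.33 (adjusted p = 0.095), without PBS 3 it was 0.39 (adjusted p = 0.096), and the adjusted p also rose to 0.052, 0.081 and 0.076 without PBS 1, OVA/LPS/Vehicle 34 or OVA/LPS/Vehicle 78. With OVA/LPS/Vehicle 78 alone in its group it was 0.53 (adjusted p = 0.226). OVA/LPS/GGsTop stood between the other groups, at -0.17 (interval -0.45 to 0.11) from OVA/LPS/Vehicle and 0.26 (interval -0.04 to 0.56) from PBS.

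C3ar1 (ENSMUSG00000040552, GRCm38 chr6:122847138-122856161, minus strand) encodes the G protein-coupled receptor of C3a. Its level was 1.09, 1.20 and 1.05 FPKM in PBS. It was 4.18, 2.10, 1.25 and 4.13 FPKM in OVA/LPS/Vehicle and 2.10, 3.62, 1.83 and 2.70 FPKM in OVA/LPS/GGsTop. Every challenged library lay above every PBS library, but OVA/LPS/Vehicle 56 by little. C3ar1 was higher in OVA/LPS/Vehicle than in PBS by a log2 difference of 0.81 (SE 0.27, ratio of means 2.62, limma adjusted p = 0.039). This call was lost after the GC correction (0.46, adjusted p = 0.267), without any of the PBS libraries 1, 2 and 3 (adjusted p = 0.083, 0.053 and 0.113) and without OVA/LPS/Vehicle 12 or 78 (adjusted p = 0.090 and 0.096) or OVA/LPS/GGsTop 1 (adjusted p = 0.0501). With OVA/LPS/Vehicle 78 alone in its group the difference was 1.28 (adjusted p = 0.205). OVA/LPS/GGsTop differed from PBS by 0.73 (interval 0.13 to 1.33, unadjusted p = 0.022, adjusted p = 0.168) and from OVA/LPS/Vehicle by -0.08 (interval -0.63 to 0.48).

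The sum of 11 macrophage markers moved with C3ar1. It was 230 to 310 FPKM in PBS. In OVA/LPS/Vehicle it was 903, 505, 234 and 1011 FPKM for 12, 34, 56 and 78, and in OVA/LPS/GGsTop it was 523 to 960 FPKM. OVA/LPS/Vehicle 56 was at the PBS level in this sum as in C3ar1. Most of the difference was in Chil3, a chitinase-like protein of alternatively activated macrophages, which made up 23.1% of the sum in PBS and 69.7% in OVA/LPS/Vehicle. The other 10 markers summed to 181 to 237 FPKM in PBS, 103 to 277 FPKM in OVA/LPS/Vehicle and 183 to 276 FPKM in OVA/LPS/GGsTop. Of the 11 markers, 1 was higher and 3 were lower in OVA/LPS/Vehicle than in PBS, beside 15.9% and 22.1% of all genes. After the GC correction 1 was higher and 1 lower. The part of macrophage number in the C3ar1 values was not tested. In such bulk tissue, fewer cells of a type and less RNA per cell cannot be told apart.

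C5ar1 (ENSMUSG00000049130, GRCm38 chr7:16246743-16259540, minus strand) encodes the main receptor of C5a, abundant on neutrophils and other myeloid cells. Its level was 3.93, 4.89 and 9.79 FPKM in PBS, 3.24, 4.58, 1.86 and 3.33 FPKM in OVA/LPS/Vehicle and 5.35, 5.66, 5.15 and 3.71 FPKM in OVA/LPS/GGsTop. PBS 3 was the highest of all libraries, and OVA/LPS/Vehicle 56 the lowest. OVA/LPS/Vehicle differed from PBS by -0.72 (SE 0.27, limma adjusted p = 0.057), which passed the threshold after rescaling to equal totals (adjusted p = 0.025) and fell to -0.38 without PBS 3 (adjusted p = 0.262). With GC corrected it was -0.71 (adjusted p = 0.082). OVA/LPS/GGsTop differed from OVA/LPS/Vehicle by 0.52 (interval -0.04 to 1.07, adjusted p = 0.187), and by 0.51 with GC corrected (adjusted p = 0.261). The sum of 10 neutrophil markers was 182, 114 and 363 FPKM in PBS, 234, 265, 142 and 266 FPKM in OVA/LPS/Vehicle and 212, 307, 202 and 154 FPKM in OVA/LPS/GGsTop. PBS 3 was the highest here as in C5ar1, but 3 of the OVA/LPS/Vehicle libraries lay above PBS 1 and 2 in this sum, while none of the 4 lay above both in C5ar1. S100a9 was the highest of these markers, so that it weighs most in the sum. Of the 9 tested, 3 were called lower and 0 higher in OVA/LPS/Vehicle than in PBS, against 22.1% of all genes lower. By sign alone 5 differences were positive and 4 negative, and after the GC correction 1 was called lower. PBS 3 was also the highest in alveolar markers, at 16283 FPKM, and the part of these cells in the C5ar1 values was not tested.

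**Figure D2:**
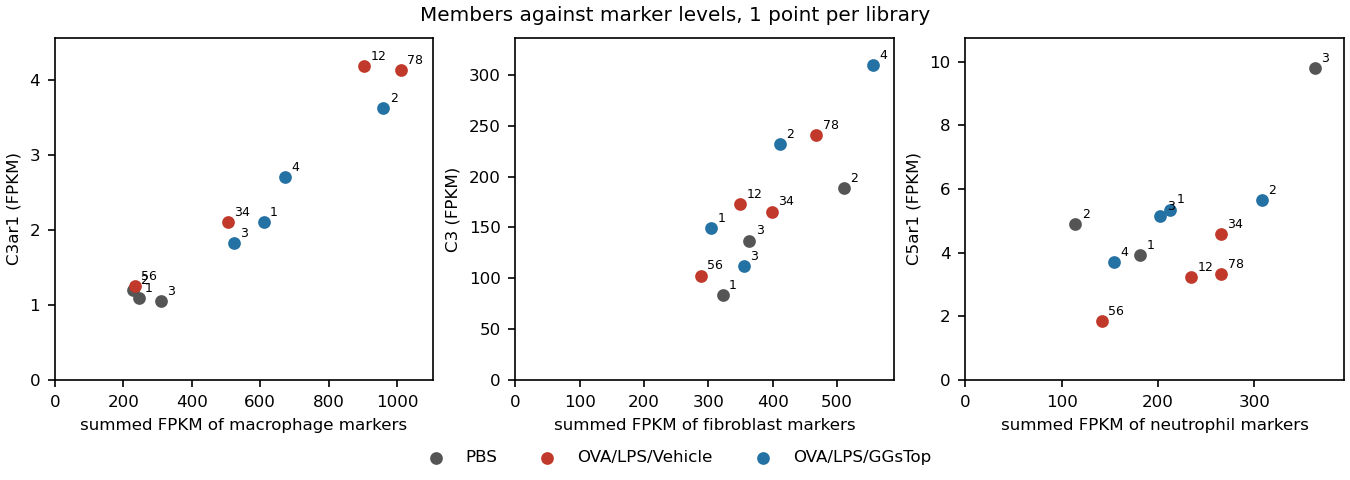
FPKM of C3ar1, C3 and C5ar1 (y axes) against the summed FPKM of macrophage, fibroblast and neutrophil markers (x axes), with 1 point per library marked by its label. C3ar1 at 1.05 to 1.25 FPKM goes with macrophage sums of 230 to 310 FPKM, and PBS 3 is the highest point for C5ar1 at 9.79 FPKM with a neutrophil sum of 363 FPKM.

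Counted together, 3 of the 6 members tested were called between OVA/LPS/Vehicle and PBS (2 higher, 1 lower), against 38% of all genes tested (15.9% higher, 22.1% lower). The 3 called members were also the ones whose groups did not overlap, against 44.1% of all genes. The median log2 difference of the 6 was 0.08, beside -0.01 over all genes. The share of members called was near that of genes in general. With GC corrected, limma called 0 of 6 against 21.5% of genes, and without PBS 3 it called 0 of 6 against 21.9% of genes. At an unadjusted p under 0.05 limma counted 4 of the 6 as deposited, 3 with GC corrected and 2 without PBS 3. Without the libraries with thyroid markers, 1 OVA/LPS/Vehicle library was left, and the log2 differences were -0.35 for C4b, 1.28 for C3ar1 and 0.53 for Cfi. Limma voom on the recovered fragments called 2 of 6, against 39.4% of genes. For GGsTop, set against OVA/LPS/Vehicle, limma called 0 of 6, against 8.71% of all genes (6.9% higher, 1.81% lower), and limma voom called 0 against 8.11%. With GC corrected it was 0 against 2.24%, and without PBS 3 it was 1 (C4b) against 25.6%. C4b alone had an unadjusted p under 0.05, that is 1 of 6 by either tool. No member was without overlap, against 29.7% of all genes, and the median difference was 0.28 beside 0.03 over all genes. For GGsTop set against PBS, limma and limma voom called 0 of 6, against 2.88% and 2.36% of all genes, with 1 of 6 (C3ar1) at an unadjusted p under 0.05 by either tool. With GC corrected limma called 0 of 6, against 4.35%, and 0 had an unadjusted p under 0.05. C3ar1 was also the only member without overlap there, against 14.8% of all genes, and the median difference was 0.23 beside 0.01. The comparisons share groups, so that a low OVA/LPS/Vehicle value enters both of those it takes part in.

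**Figure D3:**
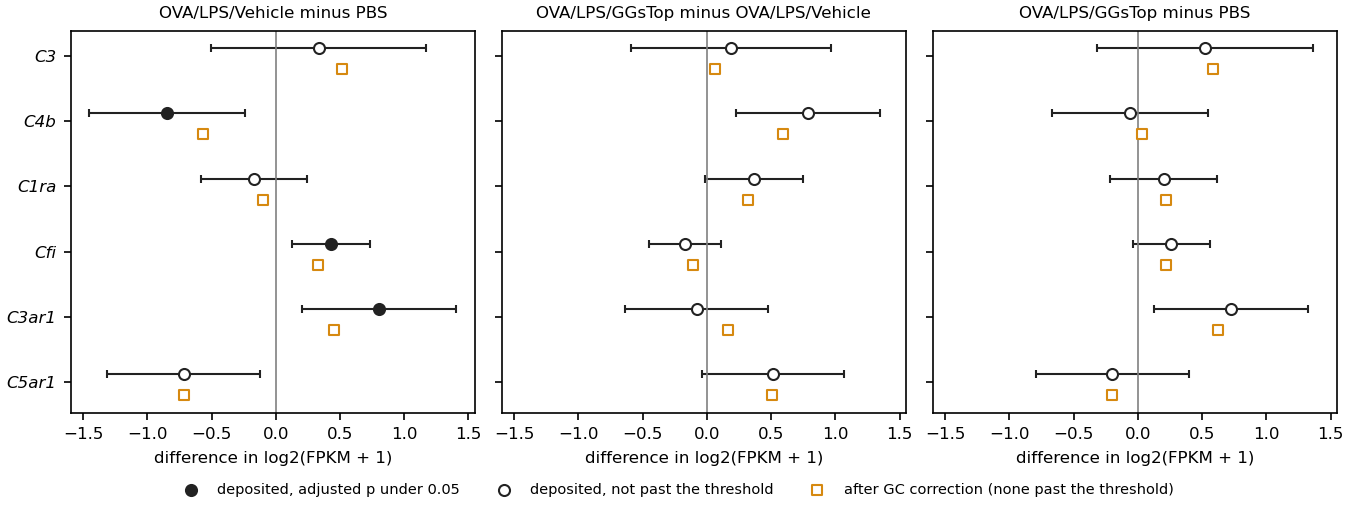
Difference in log2(FPKM + 1) (x axis) of the 6 tested members in the 3 comparisons, with 95% intervals (bars) before and the estimate (squares) after the GC correction. Filled circles pass an adjusted p of 0.05, which holds for C4b (-0.85), Cfi (0.43) and C3ar1 (0.81) between OVA/LPS/Vehicle and PBS and for no square.

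Because members differed in direction, their FPKM ratios within a library were compared, a measure that no scaling between libraries can change. These pairs were chosen after the values were seen, and all 15 pairs of the 6 tested members were computed. Of these, 8 did not overlap between OVA/LPS/Vehicle and PBS (10 after the GC correction), 5 between OVA/LPS/GGsTop and OVA/LPS/Vehicle (3 after it), and 4 between OVA/LPS/GGsTop and PBS (4 after it). The share for pairs of other genes was not computed, so these counts cannot be called particular to the members. Of single genes, 44.1%, 29.7% and 14.8% did not overlap in these comparisons. A ratio of a lower to a higher member repeats their single-gene differences and is no further support. C3 to C4b was 2.37, 4.50 and 2.33 in PBS. The ratio was 7.23, 6.46, 6.38 and 6.97 in OVA/LPS/Vehicle and 4.33, 5.25, 3.37 and 4.85 in OVA/LPS/GGsTop. The OVA/LPS/Vehicle libraries lay above all others and close together, although C3 and C4b each varied more than 2-fold among them. The log2 difference was 1.21 against PBS and -0.62 after GGsTop relative to OVA/LPS/Vehicle, each with an exact two-sided permutation p of 0.0286, the smallest these groups allow, and adjusted p of 0.061 and 0.086 over the 15 pairs. After the GC correction the differences were 1.11 and -0.55, and neither pair of groups overlapped.

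C5ar1 to C3ar1 was 3.59, 4.08 and 9.35 in PBS. It was 0.775, 2.18, 1.48 and 0.807 in OVA/LPS/Vehicle and 2.55, 1.56, 2.82 and 1.37 in OVA/LPS/GGsTop. The C5a receptor thus exceeded the C3a receptor in every PBS library by more than 3-fold, and in 2 of the OVA/LPS/Vehicle libraries it was below it. The log2 difference was -2.11 between OVA/LPS/Vehicle and PBS and -1.38 between OVA/LPS/GGsTop and PBS (exact two-sided permutation p = 0.0286 for both, adjusted p = 0.061 and 0.107). With GC corrected it was -1.76 and -1.28. C4b to C1ra, both of the classical route, was 2.16, 1.73 and 2.69 in PBS, 1.49, 1.28, 1.153 and 1.43 in OVA/LPS/Vehicle and 1.69, 1.74, 1.496 and 2.30 in OVA/LPS/GGsTop. OVA/LPS/Vehicle differed from PBS by -0.70 on the log2 scale (exact two-sided permutation p = 0.0286, adjusted p = 0.061), and by -0.48 with GC corrected.

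C4b to Cfi, a substrate and the protease that cuts it, was 84.3, 110.9 and 203 in PBS, 31.7, 23.6, 28.5 and 35.6 in OVA/LPS/Vehicle and 42.6, 79.1, 83.1 and 80.7 in OVA/LPS/GGsTop. It was the 1 pair of the 15 whose groups overlapped in no comparison. C4b alone was lower and Cfi alone higher in OVA/LPS/Vehicle than in PBS, so this ratio repeats those values and is no further support. The log2 differences were -2.07 for OVA/LPS/Vehicle from PBS, 1.22 for GGsTop from OVA/LPS/Vehicle and -0.84 for GGsTop from PBS (exact two-sided permutation p = 0.0286 each, adjusted p = 0.061, 0.086 and 0.107). With GC corrected they were -1.68, 0.97 and -0.71, and the groups again did not overlap. Between OVA/LPS/Vehicle and PBS, C4b to C3ar1 differed by -2.10 and Cfi to C5ar1 by 2.08, or -1.47 and 1.98 with GC corrected, neither pair overlapping. No ratio had an adjusted p under 0.05, which these group sizes could reach only if more pairs were at the smallest p.

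**Figure D4:**
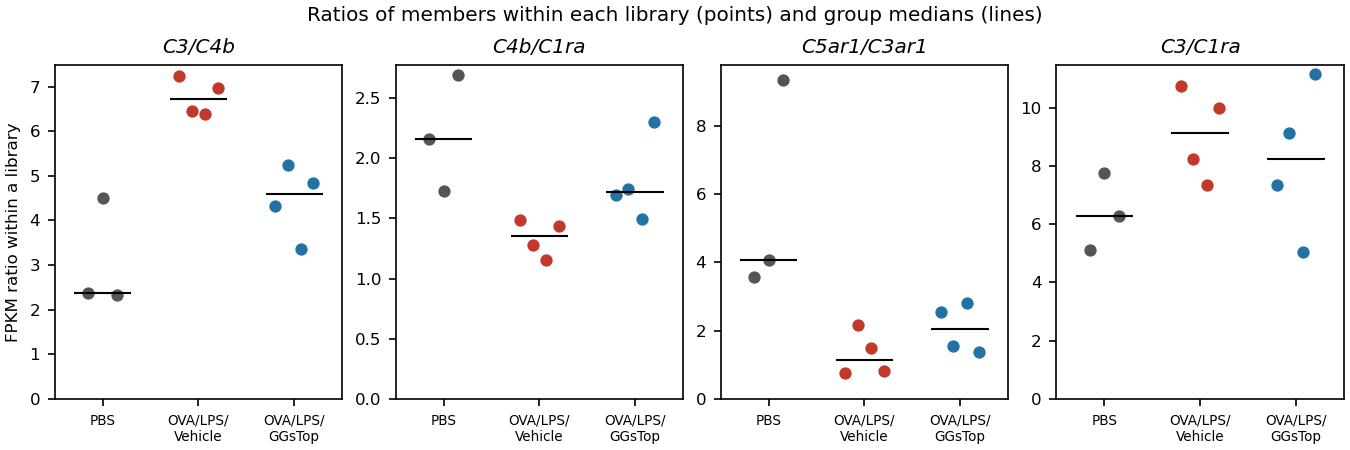
Ratio of the FPKM of a pair of members within each library (y axis, from 0; points) and the group median (lines) for C3/C4b, C4b/C1ra, C5ar1/C3ar1 and C3/C1ra. C3/C4b lies at 6.38 to 7.23 in OVA/LPS/Vehicle and at 2.33 to 5.25 in the other groups, while C3/C1ra overlaps between all groups.

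Over the 11 libraries the members most alike in log2(FPKM + 1) were C4b and C2 (Pearson r = 0.81) and C4b and C1ra (r = 0.81), and the least alike were Cfi and C5ar1 (r = -0.41). The 2 other genes nearest to each member were Lgals3bp (r = 0.97) and Ctsb (0.94) for C3, Col6a2 (0.97) and Igf2r (0.96) for C4b, and Mmp23 (0.93) and Mmp2 (0.93) for C1ra. They were Gm21028 (0.95) and Lcor (0.93) for Cfi, Csf3r (0.95) and Hk3 (0.94) for C5ar1, and Chil3 (0.93) and Fcgr2b (0.93) for C3ar1. These are the highest of 14004 genes over the same 11 libraries, and they share the GC slopes and library totals.

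Of 50 other complement genes, 48 were listed and 35 tested. Between OVA/LPS/Vehicle and PBS, 6 were higher and 4 lower, that is 10 of 35 against 38% of all genes, and 5 and 5 after the GC correction, against 21.5%. Without the libraries with thyroid markers limma called 0 of 35, with 9 at an unadjusted p under 0.05. The median difference was 0.23 beside -0.01 over all genes. Among the membrane regulators, which shield host cells from complement, 3 of 6 were higher, against 15.9% of all genes. Cd55, which speeds the decay of convertases, measured 12.7 ± 4.42 FPKM (SD, n = 3) in PBS and 23.2 ± 1.30 FPKM (SD, n = 4) in OVA/LPS/Vehicle. It rose by 0.88 (adjusted p = 0.009), and Cd59a, which blocks the membrane attack complex, by 0.85 (adjusted p = 0.020). Cd59b rose by 0.47 (adjusted p = 0.034). With GC corrected only Cd55 of these was still called higher (0.56, adjusted p = 0.030), and 2 others of the 6 were called lower.

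Of 4 terminal pathway genes tested, 2 were lower as deposited and 1 after the GC correction, against 22.1% of all genes lower as deposited. C7, a subunit of the membrane attack complex, was at 77.5 to 81.7 FPKM in PBS, 31.0 to 55.97 FPKM in OVA/LPS/Vehicle and 52.1 to 87.5 FPKM in OVA/LPS/GGsTop, and C8g was at 2.89 to 3.199, 1.13 to 2.07 and 2.84 to 3.56 FPKM. The log2 differences from PBS were -0.86 (adjusted p = 0.009) and -0.54 (adjusted p = 0.012) in OVA/LPS/Vehicle. With GC corrected C7 was still lower (-0.95, adjusted p = 0.013), and the call of C8g was lost (-0.32, adjusted p = 0.095). Hc, the mouse C5 gene and so the source of the C5ar1 ligand, was named after its values were seen. It stood at 60.9 ± 14.7 FPKM (SD, n = 3) in PBS and 54.1 ± 13.3 FPKM (SD, n = 4) in OVA/LPS/Vehicle, with a difference of -0.18 (adjusted p = 0.598). Of the soluble regulators, 2 of 5 were lower, beside 22.1% of all genes. Serping1, the C1 inhibitor that blocks C1r and C1s, was at 154 to 177 FPKM in PBS, 89.5 to 120 FPKM in OVA/LPS/Vehicle and 125 to 156 FPKM in OVA/LPS/GGsTop, a difference of -0.67 from PBS in OVA/LPS/Vehicle (adjusted p = 0.005; -0.54 and 0.013 after the GC correction). Cpn1, a subunit of the carboxypeptidase that inactivates C3a and C5a, differed by -0.60 (adjusted p = 0.012; -0.51 and 0.033 after the GC correction).

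Of the classical initiators, 2 of 7 were higher, beside 15.9% of all genes. They were C1rb and C1qa, a chain of C1q (0.66, limma adjusted p = 0.021, and 1.05, adjusted p = 0.0096, after the GC correction). C1qb differed by 0.45 (limma adjusted p = 0.181), and by 0.81 (adjusted p = 0.031) after the GC correction. None of 5 lectin initiators and neither of the alternative pathway genes was called, beside 38% of all genes. Of these, Cfd, the factor D protease, ranged from 16.3 to 260 FPKM and is itself an adipocyte marker. The other 4 adipocyte markers summed to 9.04 to 149 FPKM, and their part in the Cfd values was not tested. Of 6 receptors, 1 was higher, beside 15.9% of all genes. This was C1qbp (0.47, limma adjusted p = 0.036, and 0.56, adjusted p = 0.033, after the GC correction). Its call was lost without PBS 3 (adjusted p = 0.143), at equal FPKM totals (0.140) and after the GC correction without PBS 3 (0.130).

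In the GGsTop libraries, 3 of the 35 were called against OVA/LPS/Vehicle, against 8.71% of all genes, all higher and all among the 4 that were lower in OVA/LPS/Vehicle than in PBS. They were C7 (0.66, adjusted p = 0.048), C8g (0.55, adjusted p = 0.030) and Serping1 (0.46, adjusted p = 0.041). With GC corrected the differences were 0.72, 0.40 and 0.37 and limma called 0 of 35 (adjusted p = 0.061, 0.089 and 0.080 for these 3, and 9 of 35 at an unadjusted p under 0.05). The comparisons share the OVA/LPS/Vehicle libraries, so that opposite signs are not independent. Between OVA/LPS/GGsTop and PBS, limma called 0 of 35 (8 at an unadjusted p under 0.05) and limma voom 0 of 34 (7 at an unadjusted p under 0.05), and limma called 2 of 35 after the GC correction.

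**Figure D5:**
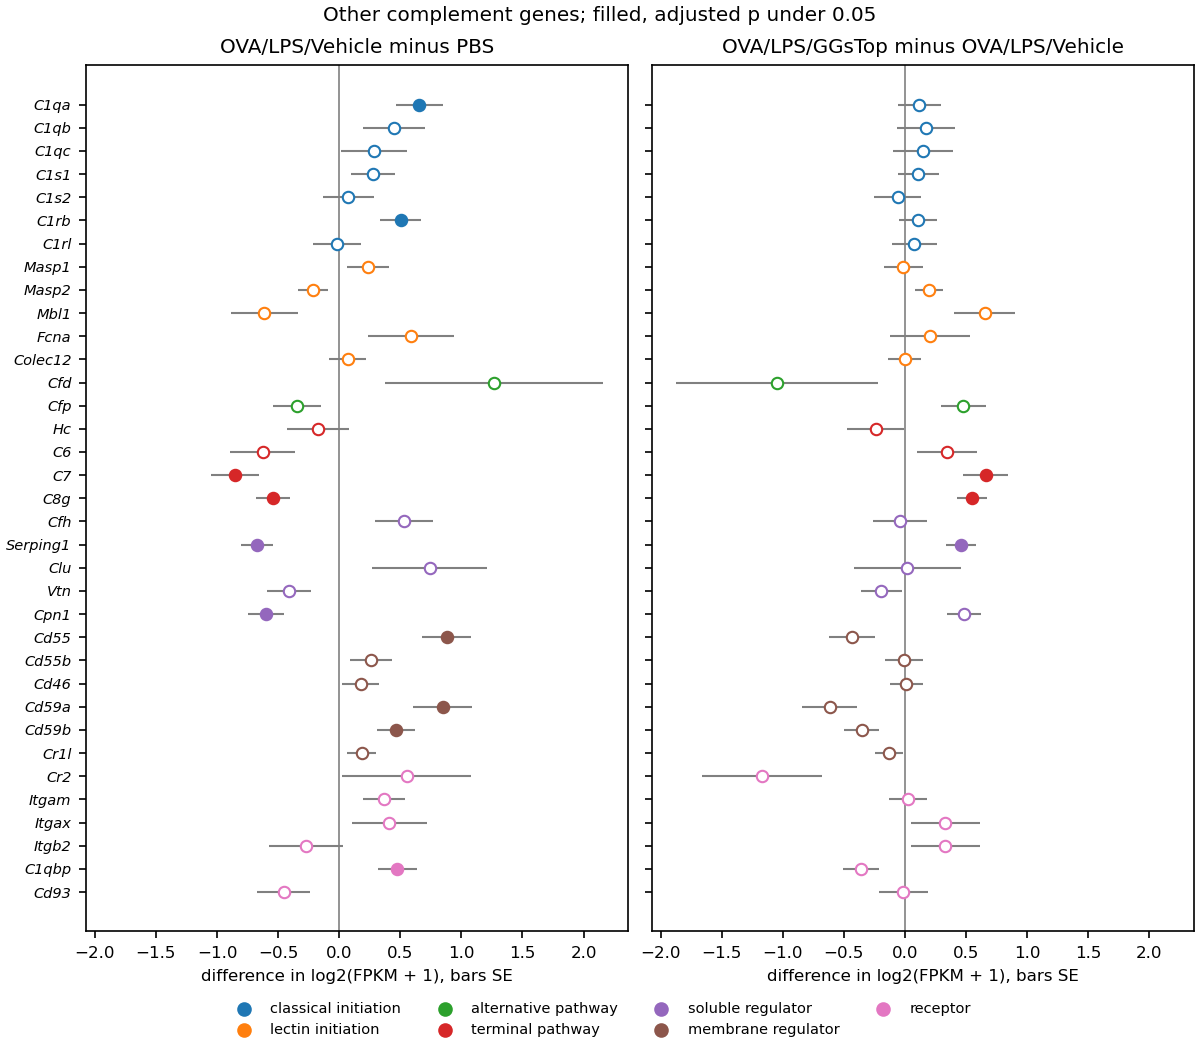
Difference in log2(FPKM + 1) (x axis, bars SE) of the 35 other complement genes tested, coloured by role, for OVA/LPS/Vehicle minus PBS (left) and OVA/LPS/GGsTop minus OVA/LPS/Vehicle (right). Filled points pass an adjusted p of 0.05, 10 on the left and 3 on the right, and C7, C8g and Serping1 are filled on both sides with opposite signs.

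C4b, C2 and Cfb lie in the MHC class III region, and 14 neighbours of theirs were tested. In OVA/LPS/Vehicle against PBS 4 were lower and 1 higher, beside 38% of all genes called, and in OVA/LPS/GGsTop against OVA/LPS/Vehicle 3 were higher, beside 8.71%. With GC corrected the counts were 1 lower and 2 higher, and 1 higher, beside 21.5% and 2.24%. Tnxb, the extracellular matrix gene that borders the C4 locus, was at 17.4 to 27.2 FPKM in PBS, 5.49 to 8.78 FPKM in OVA/LPS/Vehicle and 17.9 to 22.7 FPKM in OVA/LPS/GGsTop. It differed by -1.38 between OVA/LPS/Vehicle and PBS (adjusted p = 0.003) and by 1.33 between OVA/LPS/GGsTop and OVA/LPS/Vehicle (adjusted p = 0.006). Both calls were kept after the GC correction (-0.98 and 1.05, adjusted p = 0.006 and 0.010). Ehmt2, Skiv2l and Atf6b fell by 0.63, 0.62 and 0.53 on the log2 scale in OVA/LPS/Vehicle against PBS, and none of these 3 was called after the GC correction. Slc44a4 was higher by 1.07 (adjusted p = 0.031; 1.23 and 0.030 after the GC correction).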

How the data were processed

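RNA of dissected mouse airway (trachea, per the labels) was sequenced in 11 libraries, and poly(A) RNA was used for the libraries. Per the submitters' processing notes, the authors used cutadapt 1.15, HISAT2 2.0.5 and HTSeq 0.9.1 with build mm39, and the strand setting and annotation release are not given in the sources used here. The deposited values are FPKM, which the authors made from fragments by exon length and library total, with no scaling between libraries. Differential testing in the study used DESeq, which was not run here. The main fit used FPKM, while fragments recovered from FPKM served limma voom and the fragment numbers given.

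Of 21899 identifiers, 21795 had a symbol and exon length in GENCODE M21 (GRCm38). For 98.1% of genes, FPKM times exon length gave whole fragments in all libraries within 0.05, from which the totals were recovered. With limma 3.58.1 (R 4.3.3), log2(FPKM + 1) was fitted, for genes reaching a mean of 0.5 FPKM, in 1 model of all libraries with a mean-variance trend. Tests were two-sided with Benjamini-Hochberg adjustment over 14004 genes, with calls at an adjusted p under 0.05. Members under the filter were compared by exact permutation. The GC correction subtracted a natural spline (5 df) in GC content for each library, fitted to deviations from gene means (13987 genes). Intervals cover 95%. Floors of 3 fragments cover counting error only.

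The members, the lists of other complement genes, MHC class III neighbours and cell type markers, and the tests were chosen with earlier results of these data known. Named genes are the members, the near copies of C1ra and C4b, up to 3 genes a role of the complement list by p, up to 5 called neighbours and the 2 genes most like each member. PBS and OVA/LPS/GGsTop share the replicate numbers 1 to 3, and the labels do not say that these numbers pair them. The deviations of same-numbered libraries from their group means correlated at r = 0.16, 0.62 and 0.40. The main fit took the libraries as unpaired, and the pairing entered only as a replicate block among the alternatives. Differently numbered libraries correlated at -0.64 to 0.42, and PBS 1 with OVA/LPS/GGsTop 3 (0.42) more than either did with its own number.

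On simulated data with 200 of 14004 genes changed between OVA/LPS/GGsTop and OVA/LPS/Vehicle, 167 were recovered at a log2 fold of 1 and 187 at 2, with 11 and 7 false calls. The simulated noise was independent between genes and libraries, without GC slopes, tissue differences or shifts of whole libraries. These rates therefore need not hold for the real libraries. Alternatives were a pseudocount of 0.1, a minimum of 1 FPKM or none, equal totals or medians, no trend, array weights, only the groups compared, GC correction, limma voom on recovered fragments, a replicate block and leaving out each library. The GC correction without PBS 3, that with the block, and leaving out the 3 OVA/LPS/Vehicle libraries with thyroid markers were added after seeing the data. Coordinates of genes are those of GRCm38 and promoter sequences those of RefSeq. Python 3.11.15 was used for tables and plots, with pandas 2.3.3, scipy 1.17.1 and matplotlib 3.10.9.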

Additional observations from a re-analysis of the deposited data

How the results depend on the processing

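Between OVA/LPS/Vehicle and PBS, 3 members were called, against 0 after the GC correction, 0 after the GC correction without PBS 3 and 0 to 3 with a library left out (0 without PBS 3, 1 without OVA/LPS/Vehicle 12 or 78). The count of 10 other complement genes became 22 with array weights and 2 after the GC correction without PBS 3, and 5 to 16 with a library left out, lowest without PBS 3 and highest without PBS 2. Between OVA/LPS/GGsTop and OVA/LPS/Vehicle, the count of 0 members became 1 at equal FPKM totals (C4b) and 1 with array weights (C5ar1, adjusted p = 0.049), and 0 to 1 with a library left out. The 3 other complement genes became 1 at equal medians, 10 with array weights, 7 with only the groups compared, 0 after the GC correction, 1 after it without PBS 3, and 0 to 7 with a library left out (7 without PBS 3, and 0 without any 1 of OVA/LPS/Vehicle 34, 56 or 78 or OVA/LPS/GGsTop 1, 2 or 3). Between OVA/LPS/GGsTop and PBS, no member was called under any setting run, with 1 of 6 at an unadjusted p under 0.05 in the limma fit and in limma voom, while the 0 other complement genes became 8 with array weights, 2 after the GC correction, 2 with the replicate block and GC correction, and 0 to 3 with a library left out. The replicate block changed no call of a member, and took the calls over all genes in that comparison from 403 to 62. Without the 3 libraries with thyroid markers (12, 34 and 56), with or without the GC correction, 0 members and 0 other complement genes were called between OVA/LPS/Vehicle and PBS and 0 and 0 between OVA/LPS/GGsTop and OVA/LPS/Vehicle, with 1 OVA/LPS/Vehicle library left. Calls over all 14004 genes moved under the same settings. Between OVA/LPS/Vehicle and PBS the main fit called 3096 lower and 2231 higher. Array weights gave 4473 and 3443, and leaving out PBS 3 gave 1889 and 1175. Between OVA/LPS/GGsTop and OVA/LPS/Vehicle the main fit called 254 lower and 966 higher, and array weights 1982 and 3232. Leaving out PBS 3 gave 1447 and 2144, OVA/LPS/Vehicle 56 gave 10 and 25, and OVA/LPS/GGsTop 1 gave 4 and 20. The causes of these shifts were not tested. The C3ar1 call between OVA/LPS/Vehicle and PBS was also past the threshold no longer with no filter on low values (adjusted p = 0.059), at equal totals (0.058), with only the groups compared (0.058) and in limma voom (0.054), that of Cfi at equal totals (0.054), and that of C4b with array weights (0.099). With array weights C3 was called higher instead (0.95, limma adjusted p = 0.021), so that the count stayed at 3, all higher.

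Among the members and Hc, changes of sign were limited to differences that passed no test. This did not hold for all other complement genes. The 6 membrane regulators were all positive between OVA/LPS/Vehicle and PBS as deposited, and 2 of them were called lower after the GC correction. C1ra between OVA/LPS/Vehicle and PBS was 0.20 with array weights, and Hc ranged from -0.31 to 0.0097 with a library left out (positive without PBS 1). Between OVA/LPS/GGsTop and OVA/LPS/Vehicle, C3 was -0.093 with array weights and -0.055 to 0.43 with a library left out (negative without OVA/LPS/Vehicle 56 or OVA/LPS/GGsTop 4). C3ar1 there was 0.17 after the GC correction, with or without PBS 3, and -0.32 to 0.085 with a library left out (positive without OVA/LPS/Vehicle 12 or 78 or OVA/LPS/GGsTop 3). Between OVA/LPS/GGsTop and PBS, C4b was 0.077 with array weights, 0.030 after the GC correction, 0.13 after it without PBS 3, and -0.26 to 0.14 with a library left out (positive without PBS 3, OVA/LPS/GGsTop 1 or 3). C5ar1 there was 0.27 with array weights, 0.13 after the GC correction without PBS 3, and -0.43 to 0.13 with a library left out (positive without PBS 3). Without the libraries with thyroid markers, C1ra and Hc were 0.22 and 0.22 between OVA/LPS/Vehicle and PBS (C1ra 0.28 with GC corrected), and C1ra and C3 were -0.018 and -0.37 between OVA/LPS/GGsTop and OVA/LPS/Vehicle (-0.060 and -0.49 with GC corrected). Depth limits C2, Cfb and Cfi, whose values rest on at most 50 fragments a library.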
